A study of Mus musculus with 34 samples.

Results

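The genes described here are 34 genes of fibroblast extracellular matrix and of mesenchymal cells, taken as a fixed list of symbols, and all 34 were found by symbol among the 53655 genes counted in both the definitive endoderm (DE) and the epiblast stem cell (EpiSC) count tables. They comprise 5 fibrillar collagen genes, 3 collagen VI genes, 3 small leucine-rich proteoglycans, 4 genes of microfibrils and elastic fibres, 5 crosslinking and turnover genes, 6 matricellular or secreted factors, 4 surface molecules and 4 nuclear or cytosolic markers. RNA was sequenced from 17 DE and 17 EpiSC libraries, each of a different mouse line within its cell type. The EpiSC, a primed pluripotent state, had been converted from embryonic stem cells of inbred strains and were kept on irradiated mouse embryonic fibroblasts, the feeder cells, whose strain is not given in the sources used here. The medium was N2B27 with FGF at 12.5 ng/mL, Activin A at 20 ng/mL and the tankyrase inhibitor NVP-TNKS656 at 175 nM. For DE, EpiSC were plated on laminin with no feeders named, treated for 16 h with activin (40 ng/mL) and CHIR (3 uM) and for 24 h with LDN-193189 (100 nM) and activin (100 ng/mL), and CXCR4+ cells were isolated on magnetic beads. No line carried an engineered allele by its label.

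The DE libraries were of 4 PWK/PhJ, 2 NOD/ShiLtJ, 2 NZO/HiLtJ, 2 WSB/EiJ, 1 CAST/EiJ, 1 DBA/2J and 5 C57BL/6J lines. The EpiSC libraries were of 3 PWK/PhJ, 2 NOD/ShiLtJ, 2 NZO/HiLtJ, 2 WSB/EiJ, 2 CAST/EiJ, 1 DBA/2J and 5 C57BL/6J lines, and 16 lines gave both a DE and an EpiSC library. The strain 129S1/SvImJ was not analysed here. A line is the replicate throughout, and each line has 1 library in a cell type, so the spread given is between lines and includes any difference between dishes and preparations. DE libraries were made with a low-input cDNA kit from 2 ng of RNA and EpiSC libraries with a stranded polyA kit from 100 to 500 ng. RNA integrity numbers were 7.7 to 10 for DE and 9.5 to 10 for EpiSC, and the DE kit used 12 cDNA cycles. Kit, input and the range of RNA integrity therefore change with the cell type. Their effects and that of cell type on any value cannot be told apart.

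Fibroblasts secrete collagens, proteoglycans and microfibril proteins, which lysyl oxidases crosslink and metalloproteinases take apart. RNA from a culture on feeders can therefore include transcripts of these genes from fibroblasts beside the RNA of the stem cells. Collagen I is a heterotrimer of the Col1a1 and Col1a2 chains, and decorin, lumican and biglycan bind to collagen fibrils. Some of the genes are not confined to fibroblasts: Pdgfra and Twist1 are also known in the early mesoderm, and Pdgfra in primitive endoderm.

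Library depth was 23.8 to 67.7 M counts in DE and 25.6 to 33.8 M counts in EpiSC. All 6 DE markers examined were higher in DE. Of the 6 EpiSC markers 4 were lower in DE, among them Pou5f1, which lay between 0.842 and 87.9 CPM (counts scaled to library size) in DE and between 385 and 719 CPM in EpiSC, while Fgf5 (log2 fold change 2.46) and Otx2 (1.96) were higher in DE. NOD/ShiLtJ AC576 stood apart among DE libraries, with Pou5f1 at 87.9 CPM, before NOD/ShiLtJ AC595 at 24.9 and PWK/PhJ AC699 at 19.5 CPM, and had the lowest Sox17, at 364.7 CPM. The 5 macrophage markers summed to 0 to 2.46 CPM in DE and 0.116 to 0.639 CPM in EpiSC, with C1qa at 0 in every EpiSC library. The 5 endothelial markers summed to 0.23 to 7.06 CPM in DE and 1.83 to 13.3 CPM in EpiSC, and the 2 keratinocyte markers to at most 1.69 CPM in DE and 2.73 CPM in EpiSC. Skeletal muscle markers summed to 0.728 to 14.8 CPM in DE and 1.93 to 27.96 CPM in EpiSC, and the 10 mesoderm markers to 3.02 to 93.9 CPM in DE and 69.7 to 694.6 CPM in EpiSC. Sums were also sizeable for the 4 neural markers (7.20 to 205 CPM in DE and 203 to 1012 CPM in EpiSC), the 3 cartilage markers (34.9 to 224 CPM in DE and 19.2 to 97.9 CPM in EpiSC) and the 5 markers of parietal and visceral endoderm (4.90 to 111 CPM in DE and 12.6 to 69.6 CPM in EpiSC).

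The summed level of the 34 genes was 489 to 3013 CPM in DE, with a median of 792 CPM, and 423 to 7680 CPM in EpiSC, with a median of 3334 CPM. These genes took 0.0487% to 0.315% of all counts in DE libraries and 0.041% to 0.746% in EpiSC libraries. In EpiSC the highest library was 18.1 times the lowest, and in DE 6.16 times. Which cells gave these transcripts was not tested. From these bulk libraries, the number of fibroblasts, the RNA per fibroblast and RNA of the EpiSC or DE cells themselves cannot be told apart. Much of the range in EpiSC was found within 1 strain: the C57BL/6J lines 1, 4, 2, 44 and 5-1 had sums of 423, 1294, 2576, 2747 and 6119 CPM, a 14.5-fold range. The C57BL/6J line 1 had the lowest level of the EpiSC libraries for 27 of the 34 genes, and NOD/ShiLtJ AC595 had the highest for 17. The 3 PWK/PhJ EpiSC lines lay close together, at 5094 to 6461 CPM, whereas the NOD/ShiLtJ lines AC576 and AC595 had 1655 and 7680 CPM.

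**Figure D1:**
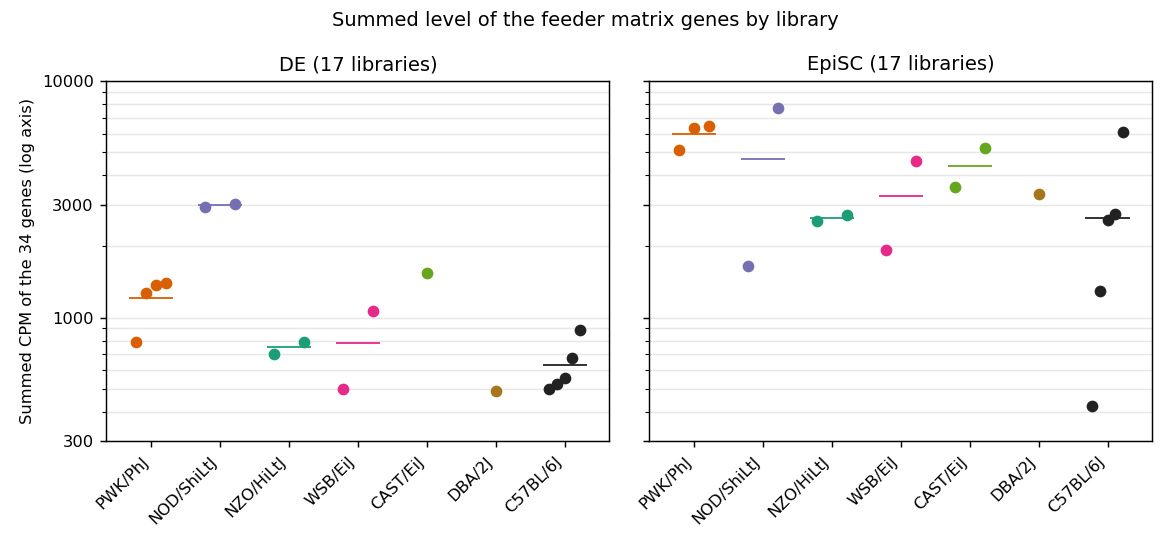
Summed CPM of the 34 genes (log axis) in each library by strain, for the 17 DE libraries on the left and the 17 EpiSC libraries on the right; a point is a line and the horizontal bar the strain mean. Sums ran from 489 to 3013 CPM in DE and from 423 to 7680 CPM in EpiSC, and the lowest and highest C57BL/6J EpiSC lines differed 14.5-fold.

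In DE the order of the libraries was another. Both NOD/ShiLtJ lines were highest, at 2946 and 3013 CPM, and the CAST/EiJ line followed at 1551 CPM. The 5 C57BL/6J lines had 498 to 889 CPM, the 4 PWK/PhJ lines 791 to 1404 CPM and the DBA/2J line 489 CPM. Over the 16 lines with both libraries, the sum in DE was 0.0813 to 1.82 times that in EpiSC (median 0.275) and lower in 14 lines. The log2 sums of a line in DE and in EpiSC were weakly related, with r of 0.379 and rho of 0.329 over 16 lines, as a description of points that share the line. Across the 17 DE libraries the sum ranked with Pou5f1 (rho 0.831) and against depth (rho −0.578), and not with Sox17 (rho −0.123) or Cxcr4 (rho −0.04). Within the 13 DE libraries of 23.8 to 35.1 M counts the NOD/ShiLtJ lines were still the highest, and the 4 deeper ones had 498 to 1377 CPM. The part that carried-over cells or depth have in these sums was not tested.

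Per kilobase of exon the most abundant of the 34 in DE was Fstl1, at a median of 33.5 CPM per kb, before Mfap4 at 21.4 and Fbln2 at 17.9. In EpiSC it was Col1a1, at 55.5 CPM per kb, before Bgn at 53.8, Fstl1 at 38.1, Col5a1 at 33.0 and Col6a1 at 31.0. On this scale Col1a1 ranked 8th, Bgn 13th and Thy1 30th in DE. The length used merges all annotated exons of a gene and can exceed that of its main transcript, so near ties are uncertain. Mfap5 and Fap were at the low end in both cell types: Fap had 0.0138 CPM per kb in DE and 0.192 in EpiSC, and Mfap5 had 0.0625 in DE and 0.188 in EpiSC.

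The comparison of DE with EpiSC asks how the level of these genes differs once the cells have left the feeders, been differentiated and been sorted. All 34 genes passed the filter on low counts. With edgeR's quasi-likelihood test, strain in the model and Benjamini-Hochberg adjustment over 20907 genes, 30 were lower in DE, 3 were higher and 1 was not called. Over all genes tested, 39.9% were called lower and 37.3% higher. The median log2 fold change, DE over EpiSC, was −2.38 for the 34 genes and −0.06 for all genes tested. Fold changes below are on the log2 scale, each with its standard error, and adjusted p-values are from this test unless another is named.

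**Figure D2:**
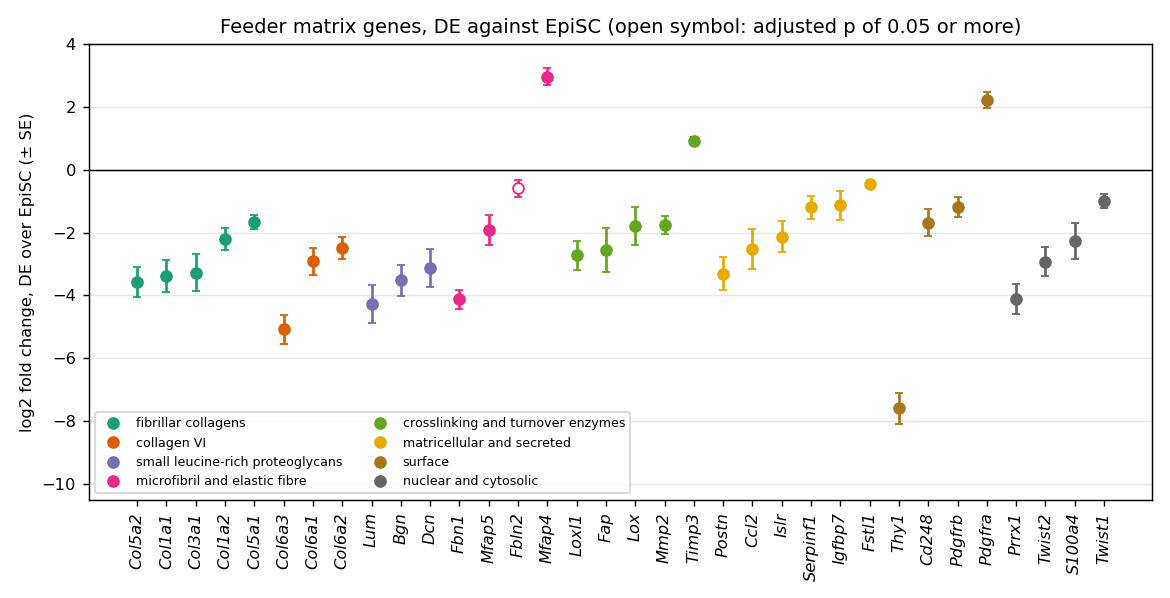
Log2 fold change, DE over EpiSC, of each gene with its standard error (17 DE and 17 EpiSC libraries, edgeR with strain in the model), grouped by role. The open symbol marks Fbln2, with an adjusted p of 0.0528; Mfap4, Pdgfra and Timp3 lie above 0 and Thy1 is lowest at −7.59.

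All 5 fibrillar collagen genes fell in DE. Col1a1 (chr11:94936224-94953042), which encodes the alpha 1 chain of collagen I, had 2.94, 38.5 and 430 CPM in DE (lowest, median and highest) and 9.13, 364 and 860 CPM in EpiSC. The groups overlapped, through NOD/ShiLtJ AC576 and AC595 at the top of DE and C57BL/6J line 1 at the bottom of EpiSC. Its log2 fold change was −3.39 ± 0.51 (edgeR adjusted p 6.85e-07), with 15 of 16 lines lower in DE. Col1a2, the partner chain, had 26.4, 83.2 and 351 CPM in DE and 14.8, 345 and 842 CPM in EpiSC, a change of −2.20 ± 0.35 (edgeR adjusted p 1.49e-06), and 2 lines were higher in DE. Col3a1, of collagen III, had 0.352, 23.3 and 315 CPM in DE and 8.50, 297 and 812 CPM in EpiSC (−3.28 ± 0.60, edgeR adjusted p 1.44e-05). Of the collagen V chains, which nucleate fibrils, Col5a2 (−3.58 ± 0.49) was lower in all 16 lines and Col5a1 (−1.68 ± 0.22) in 15. Col5a1 had 32.2, 74.5 and 378 CPM in DE and 60.3, 280.2 and 503 CPM in EpiSC.

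Collagen VI forms beaded filaments around cells from 3 chains, and all 3 genes fell, by unequal amounts. Col6a3, the large alpha 3 chain, had 1.26, 5.33 and 53.3 CPM in DE and 7.51, 273 and 542 CPM in EpiSC. It was lower in DE in all 16 lines, with a log2 fold change of −5.08 ± 0.47 (edgeR adjusted p 5.31e-11). Col6a1 had 1.35, 14.5 and 143 CPM in DE and 9.24, 136 and 247 CPM in EpiSC (−2.92 ± 0.42). Col6a2 changed by −2.49 ± 0.36. Per kilobase of exon the median of Col6a3 was 0.446 CPM in DE and 22.9 CPM in EpiSC, and that of Col6a1 3.31 CPM in DE and 31.0 CPM in EpiSC.

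The 3 small leucine-rich proteoglycans fell as well. Bgn (biglycan, chrX:73483602-73495933) had 2.67, 24.1 and 196 CPM in DE and 17.1, 328 and 891 CPM in EpiSC, with a log2 fold change of −3.52 ± 0.49 (edgeR adjusted p 1.78e-07) and 15 of 16 lines lower. Dcn (decorin) had 0, 4.25 and 59.1 CPM in DE and 2.12, 42.5 and 138 CPM in EpiSC (−3.13 ± 0.60), and was at 0 in 2 DE libraries. Lum (lumican) was lower in all 16 lines (−4.28 ± 0.60) and at 0 in 5 DE libraries, at a median of 0.514 CPM in DE and 8.57 CPM in EpiSC.

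The microfibril genes did not share a direction. Fbn1, fibrillin 1, the backbone of microfibrils, had 2.05, 7.98 and 36.3 CPM in DE and 19.5, 146 and 385 CPM in EpiSC. It was lower in all 16 lines, with a log2 fold change of −4.13 ± 0.31 (edgeR adjusted p 7.1e-13). Fbln2 (fibulin 2, chr6:91212455-91272540), which links basement membrane and elastic fibre proteins, had 46.1, 114 and 454 CPM in DE and 21.9, 191 and 520 CPM in EpiSC. Its ranges overlapped over most of their length, 10 of 16 lines were lower in DE, and its change of −0.59 ± 0.28 did not pass (edgeR adjusted p 0.0528). It was called with DESeq2 (−0.60, adjusted p 0.0347) and without the NOD/ShiLtJ lines (−0.72, edgeR adjusted p 0.0198). Mfap4 (chr11:61485431-61488900), a microfibril-associated glycoprotein, rose in DE: it had 7.91, 41.1 and 131 CPM in DE and 2.63, 4.96 and 10.2 CPM in EpiSC. The log2 fold change was 2.96 ± 0.28 (edgeR adjusted p 4.94e-11), and all 16 lines were higher in DE. CAST/EiJ WM078, the lowest DE library, lay within the EpiSC range, and the others lay above it. Mfap5, another microfibril-associated glycoprotein, was low in both cell types, at medians of 0.224 CPM in DE and 0.674 CPM in EpiSC, and fell (−1.93 ± 0.48).

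**Figure D3:**
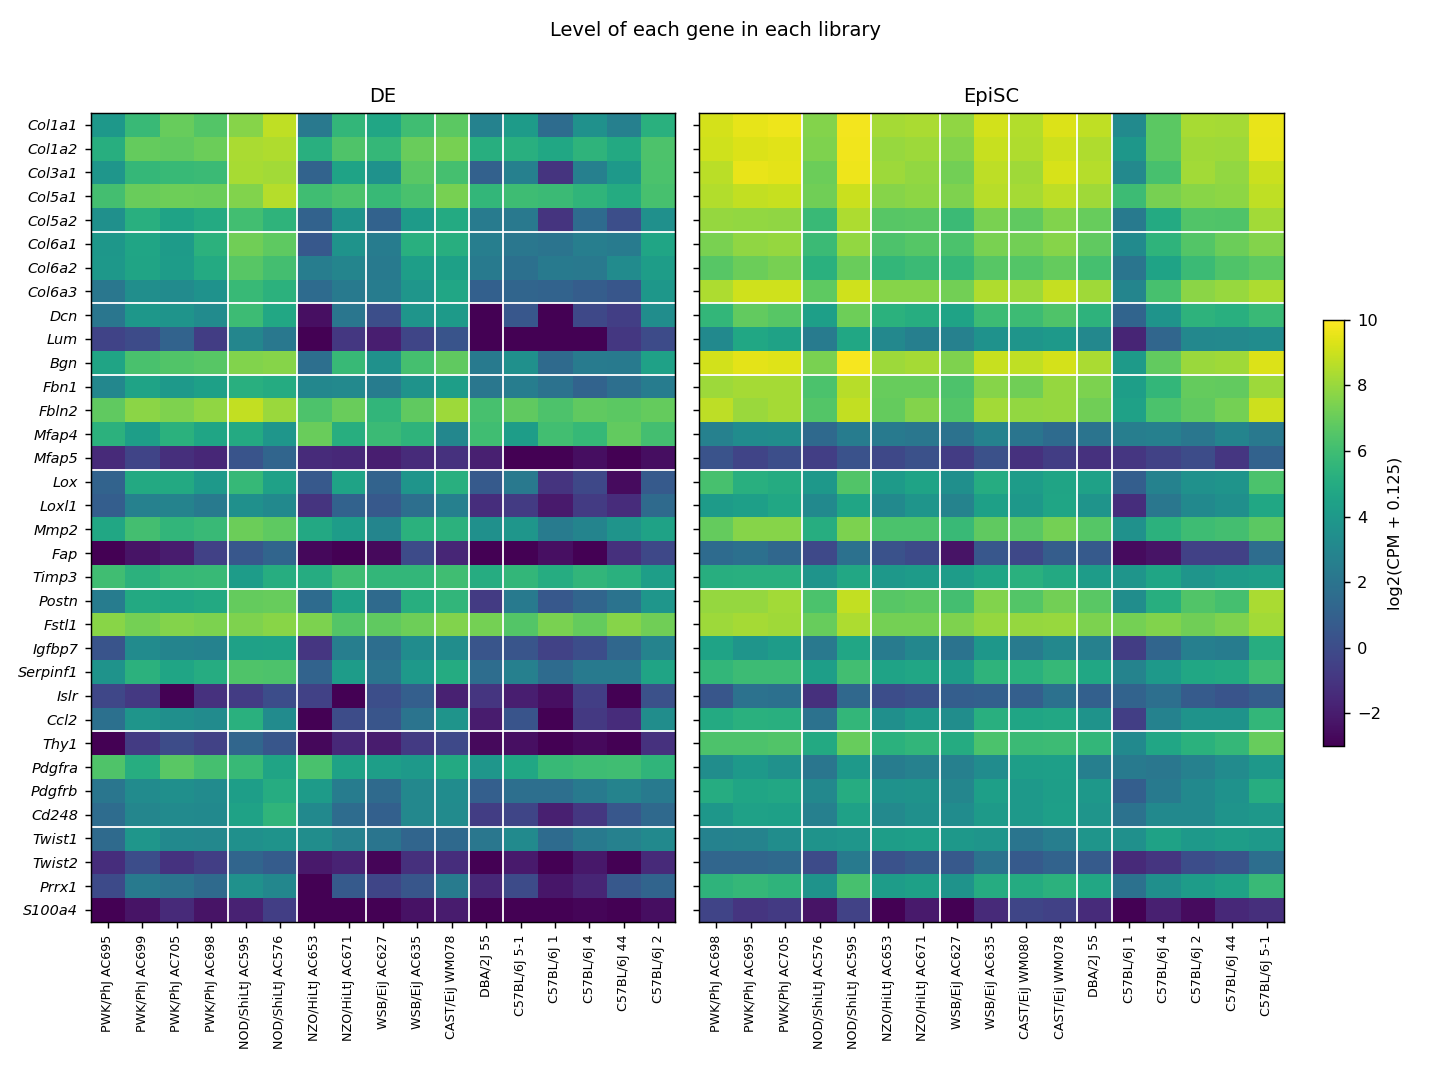
Level of each of the 34 genes, as log2 CPM after a small constant was added, in the 17 DE libraries on the left and the 17 EpiSC libraries on the right, genes in rows by role and libraries in columns by strain and summed level. Lighter colours are higher levels. Most rows are lighter in the EpiSC panel, while Mfap4, Timp3 and Pdgfra are not; C57BL/6J line 1 is the low column among EpiSC and the NOD/ShiLtJ lines are the high columns among DE.

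Of the crosslinking and turnover genes, the lysyl oxidases Lox (−1.79 ± 0.60) and Loxl1 (−2.73 ± 0.46), which crosslink collagen and elastin, the gelatinase Mmp2 (−1.76 ± 0.30) and the cell-surface protease Fap (−2.55 ± 0.69) were lower in DE. Lox had 0.0383, 4.61 and 52.0 CPM in DE and 1.73, 21.8 and 87.9 CPM in EpiSC, so that the DE range ran past the EpiSC median. Mmp2 had 5.25, 27.0 and 133 CPM in DE and 11.8, 94.8 and 198 CPM in EpiSC. Timp3 (chr10:86300372-86349506), a matrix-bound inhibitor of metalloproteinases, went the other way. It had 18.3, 46.2 and 65.1 CPM in DE and 12.99, 19.2 and 38.1 CPM in EpiSC, a rise of 0.92 ± 0.14 (edgeR adjusted p 4.96e-07), and 15 of 16 lines were higher in DE. The ranges overlapped, and the line that went against the rest was NOD/ShiLtJ AC595, with 18.3 CPM in DE and 27.8 CPM in EpiSC.

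Among the 6 secreted factors, all fell. Postn (periostin, a matricellular protein that binds collagen I) had 0.466, 14.2 and 127 CPM in DE and 10.2, 104 and 452 CPM in EpiSC (−3.31 ± 0.52, edgeR adjusted p 1.52e-06). Fstl1 (chr16:37776873-37836514), a secreted glycoprotein of the SPARC family, had 90.4, 165 and 210 CPM in DE and 125, 187 and 337 CPM in EpiSC. Its ratio of highest to lowest library was the smallest of the 34 genes in each cell type, at 2.32 in DE and 2.70 in EpiSC. The groups overlapped over most of their range, and the change of −0.44 ± 0.12 passed (edgeR adjusted p 0.00128) with 11 of 16 lines lower. Ccl2, a chemokine that attracts monocytes, had 0, 3.34 and 37.5 CPM in DE and 0.551, 16.3 and 49.0 CPM in EpiSC (−2.54 ± 0.64). Igfbp7, Serpinf1 and Islr changed by −1.13 ± 0.47, −1.19 ± 0.36 and −2.13 ± 0.48. Igfbp7, an IGF-binding protein, had an edgeR adjusted p of 0.0293 and 12 of 16 lines lower; it lost its call without EpiSC C57BL/6J line 5-1 (−0.71) and without EpiSC DBA/2J line 55 (−1.05).

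The surface molecules held the lowest and one of the highest fold changes. Thy1 (chr9:44043384-44048579), the GPI-anchored glycoprotein used to mark fibroblasts, had 0, 0.224 and 2.34 CPM in DE and 9.01, 50.0 and 125 CPM in EpiSC. The groups did not overlap, and the change was −7.59 ± 0.49 (edgeR adjusted p 1.5e-14). Pdgfra (chr5:75152292-75198215), the platelet-derived growth factor receptor alpha, rose in DE: it had 14.3, 46.0 and 101 CPM in DE and 4.14, 9.56 and 20.3 CPM in EpiSC. All 16 lines were higher in DE, with a log2 fold change of 2.20 ± 0.25 (edgeR adjusted p 4.3e-09), although the lowest DE libraries lay within the EpiSC range. Pdgfrb, its paralogue and a pericyte marker too, fell (−1.18 ± 0.32), with 1.77, 6.89 and 32.7 CPM in DE and 1.73, 15.4 and 34.7 CPM in EpiSC. Cd248, endosialin, of mesenchymal cells and pericytes, fell (−1.69 ± 0.43).

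All 4 nuclear and cytosolic markers were lower in DE. Prrx1, a homeobox factor of limb and craniofacial mesenchyme, had 0, 1.38 and 11.9 CPM in DE and 3.42, 27.5 and 74.7 CPM in EpiSC. It was lower in all 16 lines, with a log2 fold change of −4.11 ± 0.47 (edgeR adjusted p 4.38e-09). Twist1 (chr12:33957671-33959829), a bHLH factor of mesenchyme, had 2.23, 6.55 and 14.1 CPM in DE and 4.06, 13.6 and 22.7 CPM in EpiSC, and fell, with a log2 fold change of −0.995 ± 0.22 (edgeR adjusted p 0.000169) and 14 of 16 lines lower. Its paralogue Twist2 fell (−2.92 ± 0.47). S100a4, a calcium-binding protein, was near the limit of detection, with at most 0.552 CPM in DE and 0.699 CPM in EpiSC and 0 counts in 8 DE and 3 EpiSC libraries, and changed by −2.28 ± 0.58.

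The line-by-line values show how the genes part company in the libraries that hold most of them in DE. NOD/ShiLtJ AC576 had 430 CPM of Col1a1 in DE and 196 CPM in EpiSC, and AC595 had 198 CPM in DE and 860 CPM in EpiSC. For 26 of 33 genes the DE library of AC576 was above its EpiSC library, with ratios of 0.0419 for Thy1 to 7.48 for Cd248 and a median of 1.98. In AC595 this held for 6 of 34 genes, and the median ratio was 0.462. Thy1 did not share this pattern: AC595 and AC576 had 2.34 and 1.25 CPM in DE, against 124 and 29.8 CPM in EpiSC. Along with Thy1, Col6a3 (ratio 0.379), Fbn1 (0.397), Prrx1 (0.626), Col5a2 (0.799), Lum (0.872) and Loxl1 (0.997) were lower in DE in AC576.

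**Figure D4:**
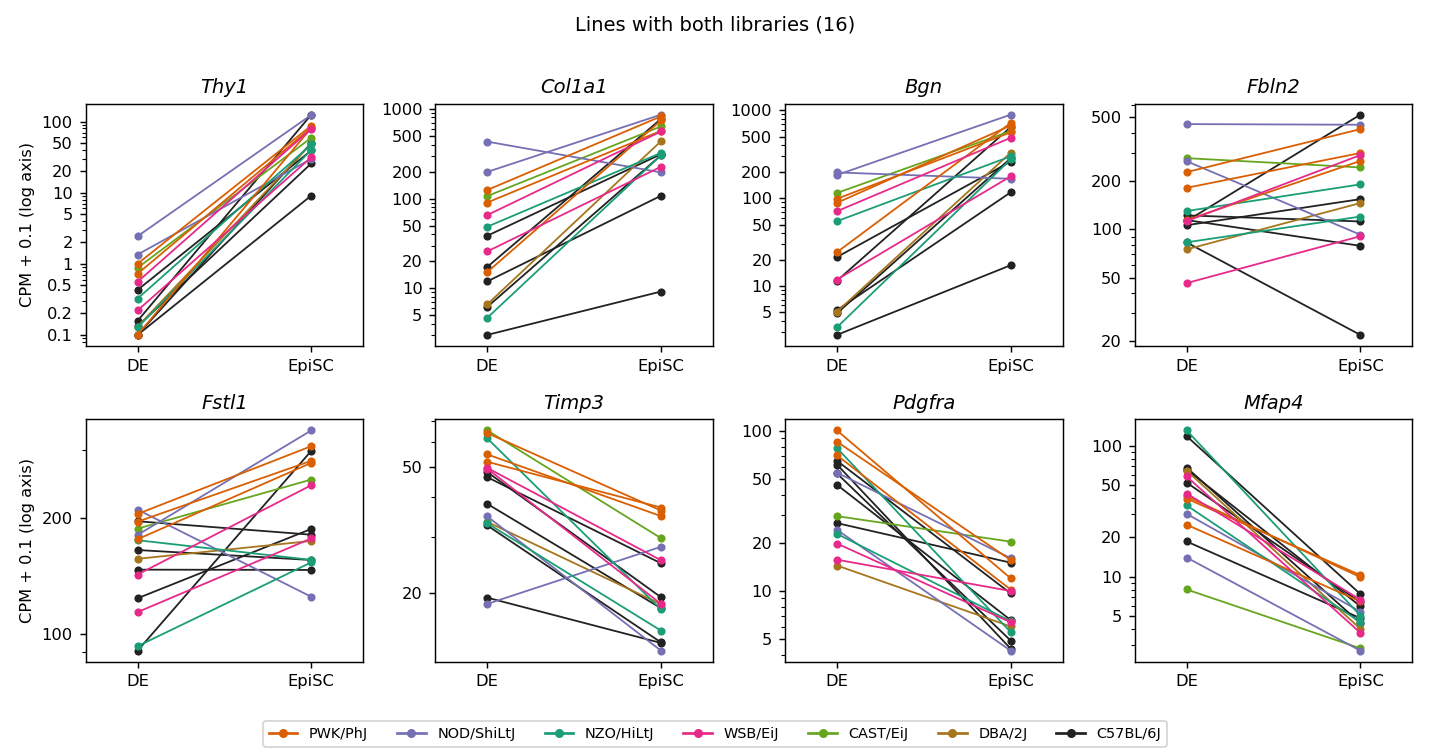
CPM + 0.1 (log axis) of 8 genes in the 16 lines with both libraries, DE left and EpiSC right in each panel, a line joining the libraries of 1 cell line and the colour its strain. Thy1 is lower in DE in all 16 lines, Pdgfra and Mfap4 are higher in DE in all 16, Timp3 in 15, and the lines cross for Fbln2 and Fstl1.

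The spread between lines of the same strain was measured as the pooled within-strain standard deviation (SD) of log2 CPM, over strains with 2 or more lines in the cell type. In DE the 33 genes tested had a median SD of 1.17 (15 libraries), against 0.514 for all genes tested, and 29 of the 33 were above that median. In EpiSC the 34 genes had a median SD of 1.18 (16 libraries), against 0.273 for all genes, and all 34 were above that median. S100a4 did not pass the filter within DE. In DE the SD was greatest for Dcn (2.28), Ccl2 (2.10) and Col3a1 (2.09) and smallest for Fstl1 (0.37), Fbln2 (0.46) and Col5a1 (0.47). In the DE library of C57BL/6J line 1, Dcn and Ccl2 were at 0 and Col3a1 was near it. The size of the greatest SDs therefore depends on the small count added before the log. In EpiSC it was greatest for Ccl2 (1.74), Col1a1 (1.67) and Col3a1 (1.65) and smallest for Twist1 (0.29), Timp3 (0.35) and Mfap4 (0.40).

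In EpiSC this spread was mostly shared by the genes. The correlation r of each gene with the mean of the other 33, over 16 libraries after removal of strain means, had a median of 0.961 and was at least 0.7 for 30 genes. The points share their library and its depth, so r is a description. Timp3 lay lower, at 0.53, and 3 genes departed with r under 0.5: Mfap4 (0.22), Islr (0.21) and Twist1 (0.37). Without the 2 libraries farthest from the median, C57BL/6J lines 1 and 5-1, r was 0.06 for Twist1, 0.49 for Islr and for Timp3, 0.49 for Mfap5 and 0.61 for Mfap4. The contrast of those 2 lines shows the same: in line 5-1 Loxl1 was 98.3 times, Ccl2 89.0 times and Col1a1 84.4 times its level in line 1 (770 and 9.13 CPM of Col1a1), and the median over 32 genes was 20.3. Loxl1 and Ccl2 were low in line 1, at 0.275 and 0.55 CPM, so the size of their ratios is uncertain. For 5 genes the ratio was under 2, namely Fstl1 (1.92), Timp3 (1.39), Twist1 (1.38), Mfap4 (0.807) and Islr (0.81).

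Fstl1 varied little but followed the others, with an EpiSC SD of 0.42 and r of 0.74. In EpiSC C57BL/6J line 1 it made up 36.7% of the summed level of the 34 genes, against a median of 5.61% over the EpiSC libraries, and its level there was 155 CPM, with 146, 187, 298 and 181 CPM in lines 2, 4, 5-1 and 44. Islr, a secreted leucine-rich repeat protein, was low throughout, with 0, 0.43 and 1.77 CPM in DE and 0.309, 1.76 and 3.63 CPM in EpiSC.

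In DE fewer genes shared a pattern once strain means were removed. Over 15 libraries r was at least 0.7 for 20 genes and between 0.5 and 0.7 for 5 (Col5a1, Fbn1, Lox, Fap and Cd248). It was under 0.5 for 8 genes: Pdgfra (−0.45), Mfap4 (−0.36), Fstl1 (−0.31), Timp3 (−0.30), Islr (0.01), Pdgfrb (0.28), Mfap5 (0.43) and Twist1 (0.43). All 3 genes that rose in DE are among these 8. With strain means kept, over all 17 DE libraries, r was at least 0.7 for 27 genes and under 0.5 for 6, and Mfap5 (0.80), Pdgfrb (0.72), Cd248 (0.88), Col5a1 (0.88) and Fbn1 (0.91) followed the others. Without the 2 libraries farthest from the median, Pdgfrb (0.54) and Mfap5 (0.67) were under 0.7. Cd248 (0.82), Col5a1 (0.84) and Fbn1 (0.85) stayed above it. With strain means removed, the farthest were C57BL/6J lines 2 and 1. Without these, 9 genes were under 0.5, and Cd248 was at 0.39. Mfap4 was highest in NZO/HiLtJ AC653 (131 CPM) and C57BL/6J line 44 (119 CPM) and lowest in CAST/EiJ WM078 (7.91 CPM) and NOD/ShiLtJ AC576 (13.9 CPM), and C57BL/6J line 44 was among the lowest DE libraries for Col1a1, at 6.13 CPM. Pdgfra was highest in the PWK/PhJ lines AC705 and AC695, at 101 and 85.8 CPM, and lowest in DBA/2J line 55 and WSB/EiJ AC635, at 14.3 and 15.6 CPM.

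**Figure D5:**
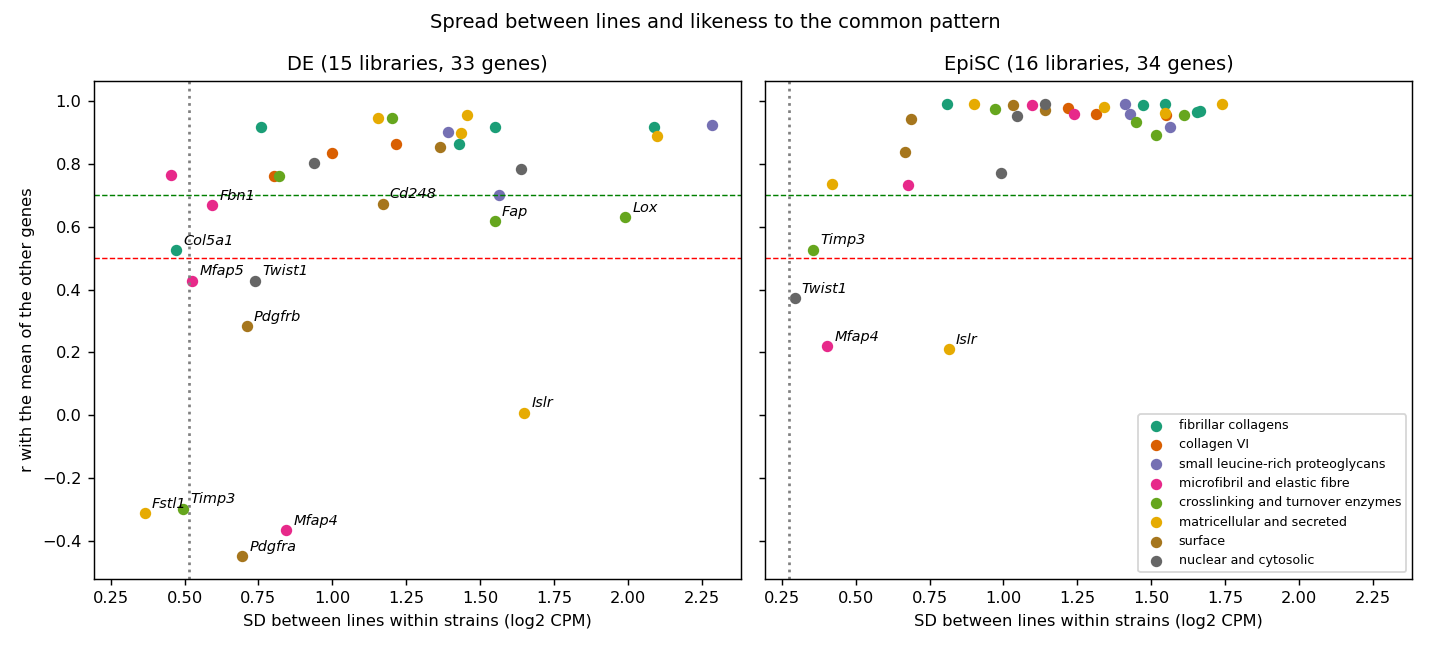
Within-strain SD between lines of log2 CPM (horizontal) and r of each gene with the mean of the other genes (vertical), for DE (15 libraries, 33 genes) on the left and EpiSC (16 libraries, 34 genes) on the right, coloured by role. Dashed lines mark r of 0.5 and 0.7 and the dotted line the median SD of all genes tested (0.514 in DE, 0.273 in EpiSC); Mfap4, Islr and Twist1 lie under 0.5 in both panels.

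The upstream sequences of 3 genes that followed the common pattern in EpiSC (Col1a2, Col3a1 and Bgn) and of 4 whose level or spread set them apart (Fstl1, Timp3, Pdgfra and Twist1) are shown here, 5′ to 3′ on the + strand, as the 250 bases before the RefSeq transcription start in GRCm38.p6. Capitals mark a CCAAT or TATAAA motif found on either strand.
Col1a2 chr6:4505368-4505617: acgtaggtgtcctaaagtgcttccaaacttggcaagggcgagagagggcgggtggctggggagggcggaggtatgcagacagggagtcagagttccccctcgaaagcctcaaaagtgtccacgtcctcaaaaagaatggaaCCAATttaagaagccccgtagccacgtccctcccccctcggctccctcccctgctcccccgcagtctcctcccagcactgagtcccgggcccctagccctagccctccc
Col3a1 chr1:45311288-45311537: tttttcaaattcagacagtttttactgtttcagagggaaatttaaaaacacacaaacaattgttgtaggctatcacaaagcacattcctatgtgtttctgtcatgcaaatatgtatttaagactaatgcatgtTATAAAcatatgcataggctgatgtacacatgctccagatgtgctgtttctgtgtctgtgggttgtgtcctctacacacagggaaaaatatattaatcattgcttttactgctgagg
Bgn chrX:73483351-73483600: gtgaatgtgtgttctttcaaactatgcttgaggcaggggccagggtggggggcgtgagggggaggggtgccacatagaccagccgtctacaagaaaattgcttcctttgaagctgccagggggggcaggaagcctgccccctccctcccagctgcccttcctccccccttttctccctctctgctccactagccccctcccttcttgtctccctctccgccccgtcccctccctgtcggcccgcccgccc
Fstl1 chr16:37776805-37777054: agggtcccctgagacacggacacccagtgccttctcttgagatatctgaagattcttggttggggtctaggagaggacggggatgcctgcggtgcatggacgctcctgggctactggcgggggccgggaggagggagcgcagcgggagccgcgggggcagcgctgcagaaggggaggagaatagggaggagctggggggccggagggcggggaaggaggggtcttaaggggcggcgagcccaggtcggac
Timp3 chr10:86300162-86300411: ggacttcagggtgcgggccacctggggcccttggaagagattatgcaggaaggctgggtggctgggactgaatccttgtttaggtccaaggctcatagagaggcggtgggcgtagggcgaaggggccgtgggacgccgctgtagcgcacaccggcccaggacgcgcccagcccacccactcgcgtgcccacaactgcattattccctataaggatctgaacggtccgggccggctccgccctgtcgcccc
Pdgfra chr5:75152001-75152250: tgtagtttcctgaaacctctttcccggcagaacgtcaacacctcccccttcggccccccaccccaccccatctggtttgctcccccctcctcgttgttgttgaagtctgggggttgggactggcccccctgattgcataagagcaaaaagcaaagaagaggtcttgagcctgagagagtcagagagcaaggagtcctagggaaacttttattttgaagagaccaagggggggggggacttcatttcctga
Twist1 chr12:33957421-33957670: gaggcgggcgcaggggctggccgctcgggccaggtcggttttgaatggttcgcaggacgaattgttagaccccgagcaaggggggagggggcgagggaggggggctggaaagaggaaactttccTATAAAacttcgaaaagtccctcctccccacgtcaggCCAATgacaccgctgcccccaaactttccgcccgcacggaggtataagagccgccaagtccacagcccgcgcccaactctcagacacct
These windows were available for 20 of the 34 genes, as 22 windows. CCAAT occurred in 4 of the 22, against 33.8% of 32851 windows of the same length, and TATAAA in 4, against 12.4%. CANNTG, the E-box bound by bHLH factors such as Twist1, was in 8 of the 22, against 66.2%, and GATAA in 3, against 22.6%. In Col1a2 the CCAAT began 109 bases before the start, in Col3a1 the TATAAA 117 bases before, and in Twist1 they began 89 and 126 bases before. Bgn, Fstl1, Timp3 and Pdgfra held neither. Median GC content was 59.2% in the 22 windows and 52.4% over all windows. No window was at hand for Col1a1, Col5a2, Dcn, Lum, Mfap4, Mfap5, Lox, Loxl1, Mmp2, Fap, Ccl2, Thy1, Pdgfrb and Cd248.

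Exons of 11 of the 34 genes overlap those of another gene, and whether the counting used strand is not given in the sources used here. Timp3 overlaps Syn3 (0.753 CPM in DE and 1.22 CPM in EpiSC, medians) and Mfap4 overlaps Mapk7 (59.6 and 59.3 CPM), both on the opposite strand, and Islr overlaps Islr2 on its own strand (0.847 CPM in DE and 6.45 CPM in EpiSC). Igfbp7, at medians of 5.799 CPM in DE and 6.46 CPM in EpiSC, overlaps Polr2b on the opposite strand, which had far more, at 186 CPM in DE and 242 CPM in EpiSC. Col3a1, Col5a1, Fbn1, Lox, Pdgfra, S100a4 and Twist2 overlap predicted genes, RIKEN genes, unnamed genes or a microRNA; those with counts given here, beside Col3a1, Fbn1, Lox and Pdgfra, had at most 0.502 CPM in any library. Without the strand setting, reads of pairs on opposite strands cannot be told apart, and those of pairs on 1 strand cannot by strand at all, so the values of these 11 genes are uncertain to that extent.

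Strains were then compared within each cell type. Reads of every strain were aligned to the same genome, mm10, and the part of alignment in the strain differences below was not tested. An edgeR F test over the 5 strains that had at least 2 lines of each cell type called 18 of 33 genes in DE, where 22.3% of all genes were called, and 2 of 34 in EpiSC, where 40% of all genes were called. In DE the smallest adjusted p-values were those of Col5a1 (edgeR adjusted p 0.000552) and Fbn1 (0.000728). Without the NOD/ShiLtJ lines the DE count was 2 of 32 genes tested, again Col5a1 and Fbn1, where 16.1% of all genes were called. With no filter on low counts it was 30 of 34, where 18.7% of all genes were called. In EpiSC the genes called were Timp3 (edgeR adjusted p 0.0134) and Twist1 (0.00876), which vary least between lines of a strain. The EpiSC count was 1, Twist1, without PWK/PhJ AC695 or AC705, and 5 without NOD/ShiLtJ AC595.

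In DE, NOD/ShiLtJ lines were higher than C57BL/6J lines for 24 of 33 genes, with no gene lower, against 11.4% of all genes called in either direction. Col1a1 had 198 and 430 CPM in the NOD/ShiLtJ lines and 2.94, 6.13, 11.9, 17.3 and 38.5 CPM in the C57BL/6J lines, and the strains did not overlap. Its log2 fold change was 4.42 ± 0.87 (edgeR adjusted p 0.00482). Bgn had 183 and 196 CPM in NOD/ShiLtJ and 2.67 to 21.2 CPM in C57BL/6J (4.44 ± 0.85, edgeR adjusted p 0.00413). Col5a1, with 188 and 378 CPM in NOD/ShiLtJ against 32.2 to 74.5 CPM in C57BL/6J, had the smallest adjusted p (2.41 ± 0.31, edgeR adjusted p 0.000443), followed by Fbn1 (3.11 ± 0.41, 0.000461). Genes not called were Mfap4 (−1.55 ± 0.62), Timp3 (−0.46 ± 0.37), Pdgfra (−0.36 ± 0.49), Fstl1 (0.45 ± 0.27), Twist1 (0.93 ± 0.51), Islr, Dcn, Fap and Ccl2. The median over the 33 genes was 3.38, against −0.05 over all genes tested. Without AC576 the count was 12, and without AC595 16. The same contrast called higher 7 of 9 contractile genes, 5 of 7 fibroblast targets of TGF-beta and 3 of 10 mesoderm markers, and called 5 of 6 DE markers lower. It called higher 7 of 18 genes of collagen folding and processing and 5 of 15 elastic fibre and other crosslinking genes. Of 9 basement membrane genes it called 2 higher and 1, Lama5, lower. Of the markers tested, it also called higher 2 of 3 neural (Tubb3 and Nes), 1 of 4 endothelial (Kdr) and 1 of 2 cartilage markers (Sox9). Also higher were 1 of 3 parietal and visceral endoderm markers (Plat) and the 1 keratinocyte marker tested (Krt14). The rest of these lists was not called. Pecam1 (−0.24), Cdh5 (−0.89), Tek (−0.73), Col2a1 (−1.60) and Apoa1 (−3.39) had negative changes, and Pax6 (1.05) and Thbd (2.74) positive ones. Among the EpiSC markers Pou5f1 was called higher, and Fgf5, Otx2 and Dnmt3b lower. The part of carried-over cells of another type in these values was not tested.

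PWK/PhJ DE lines were higher than C57BL/6J DE lines for 10 of 33 genes, with none lower, against 17.1% of all genes called in either direction. Fbn1 had 7.98, 16.5, 20.8 and 23.2 CPM in the 4 PWK/PhJ lines and 2.05, 3.18, 3.61, 5.41 and 5.64 CPM in the 5 C57BL/6J lines, without overlap, and differed by 2.12 ± 0.36 (edgeR adjusted p 0.000798). The others called were Mfap5, Lox, Bgn, Cd248, Col5a2, Loxl1, Mmp2, Col6a2 and Col5a1, with log2 fold changes of 1.13 (Col5a1) to 4.01 (Mfap5). Col1a1 did not pass (2.27 ± 0.75, edgeR adjusted p 0.0503), and its values of 15.1 to 124 CPM in PWK/PhJ overlapped those of 2.94 to 38.5 CPM in C57BL/6J. The count rested on single libraries: it was 21 without C57BL/6J line 2, and 6 without C57BL/6J line 4, PWK/PhJ AC699 or PWK/PhJ AC705. With no filter on low counts it was 26 of 34, where 12.5% of all genes were called. The same contrast called higher 4 of 9 contractile and 5 of 9 basement membrane genes, and called 1 basement membrane gene, Lama5, lower. It called higher 3 of 18 genes of collagen folding and processing and 2 of 7 fibroblast targets of TGF-beta. Of 15 elastic fibre and other crosslinking genes it called 0 higher and 1, Efemp2, lower. Of the markers tested, 1 of 10 mesoderm (Foxc1), 1 of 4 endothelial (Kdr), 1 of 2 cartilage (Sox9) and 1 of 3 neural markers (Nes) were higher. The other endothelial and cartilage markers, Pecam1 (−1.01), Cdh5 (−1.34), Tek (−1.09) and Col2a1 (−0.93), had negative changes and were not called. Among the EpiSC markers Nanog was called higher, and Fgf5 and Dnmt3b lower. The part of all these genes in the differences of the matrix genes was not tested. NZO/HiLtJ and WSB/EiJ DE lines gave 0 calls against C57BL/6J with edgeR (1.41% and 2.28% of all genes called). At an unadjusted p under 0.05 there were 5 genes in NZO/HiLtJ and 6 in WSB/EiJ. DESeq2 called 2 of 32 genes tested in NZO/HiLtJ and 1 of 32 in WSB/EiJ, where 3.74% and 5.01% of all genes were called. With no filter on low counts there were 8 in NZO/HiLtJ and 14 in WSB/EiJ, where 2.91% and 3.43% of all genes were called. Their counts were 1 and 2 without C57BL/6J line 2.

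In EpiSC, PWK/PhJ lines had positive log2 fold changes over C57BL/6J for 33 of 34 genes, with a median of 1.12, yet 2 genes passed, against 29.8% of all genes called. Timp3 had 34.8, 36.2 and 37.1 CPM in PWK/PhJ and 13.7, 13.8, 17.7, 19.2 and 24.6 CPM in C57BL/6J. The strains did not overlap, and the difference was 1.05 ± 0.23 (edgeR adjusted p 0.00357). Twist1 was the gene lower in PWK/PhJ, with 6.73, 6.96 and 10.2 CPM against 11.6, 15.8, 15.9, 18.6 and 22.7 CPM in C57BL/6J (−1.05 ± 0.21, edgeR adjusted p 0.00201). The count was 16 without C57BL/6J line 5-1, which had the highest sum of its strain, and it was 4 without NOD/ShiLtJ AC576 and 5 without NOD/ShiLtJ AC595.

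CAST/EiJ EpiSC lines differed from C57BL/6J in the same direction for both genes, a comparison that shares the C57BL/6J libraries with the last. Twist1 had 4.06 and 5.70 CPM in CAST/EiJ, below all 5 C57BL/6J lines (−1.78 ± 0.26, edgeR adjusted p 0.00018), and Timp3 had 29.6 and 38.1 CPM, above all 5 (0.94 ± 0.26, edgeR adjusted p 0.0131). Pdgfra had 19.2 and 20.3 CPM in CAST/EiJ and 4.26, 4.80, 6.48, 9.56 and 14.9 CPM in C57BL/6J (1.31 ± 0.47), with an edgeR adjusted p of 0.0498, and its call was lost when most single libraries were left out. These 3 calls stand against 31.6% of all genes, and 1 was left without CAST/EiJ WM080. The same contrast called 5 of 6 DE markers higher and 3 of 4 neural markers lower, and among the EpiSC markers Fgf5 and Otx2 higher and Pou5f1 and Dnmt3b lower. Also lower were 2 of 8 mesoderm markers tested (Tbx6 and Tcf15), 2 of 4 endothelial (Kdr and Tek) and the 1 skeletal muscle marker (Des). Their part in the differences of Pdgfra, Timp3 and Twist1 was not tested. NOD/ShiLtJ, NZO/HiLtJ and WSB/EiJ gave 0 calls against C57BL/6J in EpiSC with edgeR, where 12.9%, 5.52% and 7.41% of all genes were called. At an unadjusted p under 0.05 there were also 0. With DESeq2 there were 0 too, where 18.7%, 10.2% and 10.2% of all genes were called. For NOD/ShiLtJ the edgeR count was 3 (Lox, Postn and Twist2) without C57BL/6J line 5-1.

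Whether strain differences changed between DE and EpiSC was tested as an interaction. Over the 5 strains, 2 of 34 genes were called (10.7% of all genes): Mfap5 (edgeR adjusted p 0.00485) and Cd248 (0.0319). Mfap5 had 1.17 and 2.21 CPM in the NOD/ShiLtJ DE lines and 0.220 to 0.664 CPM in the PWK/PhJ DE lines, against 0 to 0.0484 CPM in the C57BL/6J DE lines, which held 0 to 3 counts each. In EpiSC it had 0.541 and 1.07 CPM in NOD/ShiLtJ, 0.674 to 1.15 CPM in PWK/PhJ and 0.393 to 1.99 CPM in C57BL/6J, and these overlapped. Cd248 had 22.5 and 45.7 CPM in NOD/ShiLtJ and 0.147 to 2.59 CPM in C57BL/6J in DE, and 6.11 and 21.8 CPM in NOD/ShiLtJ and 3.62 to 15.1 CPM in C57BL/6J in EpiSC. With the cell line as a block Cd248 was called and Mfap5 was not, and without the NOD/ShiLtJ lines neither was. With no filter on low counts 29 genes were called, against 10.4% of all genes, and with DESeq2 4, against 19.2%. For PWK/PhJ against C57BL/6J alone, Mfap5 was called (3.87 ± 0.96, edgeR adjusted p 0.0136), against 6.67% of all genes, and was not called with the block. This count was 11 with no filter, against 5.39% of all genes, and 2 with DESeq2, against 9.72%. With so few counts in C57BL/6J DE, the size of this fitted change depends on the small count that the fit adds.

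Genes outside the 34 followed the same pattern in EpiSC. The 12 with the highest r to the mean of the 34 genes, of 9719 ranked over 16 EpiSC libraries with strain means removed, had r of 0.992 to 0.998 and were Col4a2, Cav1, Ehbp1l1, Fam198b, Thbs2, Pcolce, Ctsk, Cdh11, Col8a1, Arhgdib, Tnc and Gpnmb. Tnc, tenascin C, had the highest level of them, at medians of 61.8 CPM in DE and 755 CPM in EpiSC. Col4a2, a chain of the basement membrane collagen IV, had medians of 115 CPM in DE and 190 CPM in EpiSC and ranged from 30.2 to 363 CPM in EpiSC. Their points share library and depth with those of the 34 genes.

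Genes that serve the same matrix were compared between DE and EpiSC as lists, beside the 37.3% of all genes called higher and the 39.9% called lower. Of 18 genes of collagen folding and processing, 7 rose and 4 fell, with a median log2 fold change of 0.01; the share that rose is near that of all genes. Those that rose included P4hb (1.25 ± 0.07) and Serpinh1 (0.77 ± 0.11), the endoplasmic reticulum enzyme subunit and the chaperone of procollagen, and those that fell included Plod2 (−1.91 ± 0.21), the telopeptide lysyl hydroxylase, and Pcolce (−1.33 ± 0.33), an enhancer of procollagen cleavage. Of 15 elastic fibre and other crosslinking genes, 2 rose (Efemp2 and Fbln1) and 11 fell, with Eln (elastin) at −3.09 ± 0.64, Ltbp2 at −3.48 ± 0.54 and Loxl2 at −2.18 ± 0.26. Of 9 basement membrane genes none rose and 5 fell, with Hspg2 (perlecan) at −4.18 ± 0.18 and Nid1 at −2.42 ± 0.26. Of 7 fibroblast targets of TGF-beta, 2 rose and 4 fell, with Fn1 (fibronectin) at −2.99 ± 0.23 and Cyr61 at 2.24 ± 0.23. Of 9 contractile genes 1 rose and 4 fell, and the share that fell is again near that of all genes. Of the 10 mesoderm markers, 2 rose, Mesp1 (5.32 ± 1.02) and Hand1 (5.70 ± 0.86), and 5 fell, among them T (−4.81 ± 0.56).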

How the data were processed

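The data are whole-number read counts per gene, deposited by the authors as a table for each cell type, without normalisation. STAR 2.4 (alignment to mm10), HTSeq 0.6.1 (counting) and DESeq2 are the tools named in the submitters' processing notes. Annotation release and strand setting: not given in the sources used here. Coordinates are from GENCODE M21 (GRCm38). Reads were paired, of 100 nt, per the labels' protocols.

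A gene was tested if 3 or more of the libraries fitted held 10 or more counts of it. The test was the quasi-likelihood F test of edgeR 4.0.16 (robust, on TMM-scaled counts; limma 3.58.1, R 4.3.3), with Benjamini-Hochberg adjustment over all genes tested and a threshold of 0.05. DE against EpiSC was fitted on all 34 libraries with strain as a covariate, and strain contrasts on the 17 libraries of a cell type, which share 1 estimate of spread; the interactions were fitted on all 34. CPM are TMM-scaled; spread and r use log2 CPM with a prior count of 2. A gene departs at r under 0.5 and follows at 0.7 or more. DESeq2 1.42.0 was an alternative; others were RLE scaling, no filter, no strain term, the cell line as a block, each library left out in turn and, added after seeing the data, the NOD/ShiLtJ lines left out. Tables and figures used Python 3.11.15, pandas 2.3.3, numpy 2.4.6 and matplotlib 3.10.9. Scripts were tested on simulated data.

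The 34 genes and the other lists were chosen with earlier results of these data known. All 34 are accounted for. Those given by lowest, median and highest were, in each role, the 2 with the highest mean CPM in EpiSC, genes departing in EpiSC, genes higher or not called in DE, and the 3 with the largest and smallest SD in each cell type; others were added where a result turned on them. Same-numbered libraries are of the same cell line, which is the pairing; over 14 lines the correlation of their deviations was 0.0014 to 0.147 over all genes and −0.308 to 0.703 over the 34 genes. In the NOD/ShiLtJ, NZO/HiLtJ and WSB/EiJ strains, with 2 lines each, the deviations mirror each other. Both lines of such a strain therefore give the same value. Promoter windows are from RefSeq, and genes that share exons with another gene are named as uncertain.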

Additional observations from a re-analysis of the deposited data

Results flagged for a closer look

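In 11 of 105 groups of 4 or 5 lines examined, the highest or lowest line stood apart from the rest by Dixon's ratio (the gap to the nearest line over the whole range, on log2 values), where chance flags about 1 in 20 groups. All 11 are of 2 DE libraries and of genes that vary together, so the groups are not independent and their number cannot be set against that share. C57BL/6J line 2 was the high DE line of its strain for Col6a1 (ratio 0.797, 25.1 CPM against 3.93 to 5.83), Col6a3 (0.803, 14.8 CPM against 1.26 to 2.20), Loxl1 (0.718, 2.73 CPM against 0.117 to 0.484) and Thy1 (0.784, 0.33 CPM against 0 to 0.0578). PWK/PhJ AC695 was the low DE line of its strain for Col1a2 (ratio 0.867, 35.1 CPM against 114 to 137), Col3a1 (0.895, 14.01 CPM against 50.6 to 58.6), Col5a1 (0.893, 69.7 CPM against 129 to 139) and Bgn (0.829, 24.1 CPM). The same line was lowest for Postn (0.904, 5.44 CPM against 25.6 to 30.01), Pdgfrb (0.834, 4.13 CPM) and Cd248 (0.84, 2.94 CPM).

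The strain differences of Mfap5 (edgeR adjusted p 0.00485 for the interaction over 5 strains, and 0.0136 for PWK/PhJ against C57BL/6J) and Cd248 (edgeR adjusted p 0.0319 over 5 strains) differed between DE and EpiSC. Mfap5 rests on 0 to 3 counts in each C57BL/6J DE library and lost both calls with the cell line as a block. Without the NOD/ShiLtJ lines neither Mfap5 nor Cd248 was called over the strains.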

How the results depend on the processing

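The fold changes of the 34 genes, DE over EpiSC, kept their direction in all 1360 recomputed values, and 1342 also kept their side of the threshold; the 10 that gained it are Fbln2. The 33 calls were 33 with the cell line as a block. Without a strain term 5 were lost: Mfap5 (−1.08), Lox (−1.10), Igfbp7 (−0.73), Serpinf1 (−0.64) and Cd248 (−0.78). Igfbp7 also lost its call with no filter on low counts (−1.17). With no filter on low counts the DE strain counts were 30 for the F test (18.7% of all genes called, 22.3% with the filter), 26 for PWK/PhJ (12.5%), 8 for NZO/HiLtJ (2.91%) and 14 for WSB/EiJ (3.43%), and the interactions gave 29 over the 5 strains (10.4%, 10.7% with the filter) and 11 for PWK/PhJ (5.39%). With DESeq2 NZO/HiLtJ gave 2 in DE (3.74% of all genes called) and WSB/EiJ 1 (5.01%). The DESeq2 interactions gave 4 over the strains (19.2%) and 2 for PWK/PhJ (9.72%). With the block for cell line the interactions gave 1 over the strains (5.32%) and 0 for PWK/PhJ (3.84%). Without the NOD/ShiLtJ lines the DE F test gave 2 (16.1% of all genes called) and the interaction over the strains 0 (6.67%). The cause was not tested. Leaving out 1 library gave 32 to 34 calls for DE against EpiSC. In DE it gave 9 to 24 for the F test, 12 to 26 for NOD/ShiLtJ, 6 to 21 for PWK/PhJ, 0 to 1 for NZO/HiLtJ and 0 to 2 for WSB/EiJ. In EpiSC it gave 1 to 5 for the F test, 2 to 16 for PWK/PhJ, 0 to 3 for NOD/ShiLtJ, 1 to 3 for CAST/EiJ and 0 for NZO/HiLtJ and WSB/EiJ. It was not run for the interactions. The median SD stayed at 1.01 to 1.23 in DE and 0.876 to 1.24 in EpiSC, and the count of departing genes at 6 to 10 in DE and 2 to 4 in EpiSC. Depth limits Mfap5, Fap, Twist2, S100a4 and, in DE, Thy1, which hold few counts.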
